A study of Mus musculus with 5 samples.

Results

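The genes described here are 35 genes of mitosis, chosen by symbol for their roles in G2 and M phase: the mitotic cyclins and their kinase, the kinases and motors of the spindle, the kinetochore, the spindle checkpoint, cytokinesis and the proliferation markers Mki67 and Top2a. All 35 were found among the 19699 entries of the deposited table, and all 35 passed the filter on low values, 1 FPKM or more in at least 2 libraries, as did 12838 entries in all. FPKM counts sequenced fragments per kilobase of a gene and per number of reads in its library. Bulk RNA came from the main airway part of E13.5 mouse embryos of C57 dams, with trachea and lung together. The mutants (2 libraries) were described as lacking Prmt5, an arginine methyltransferase of histones and spliceosome proteins, in epithelial cells of the lung, and the controls (3 libraries) were litter controls with the genotype label WT. The genotype label of the mutants reads Prmt5 knockdown, whereas a knockout is written in the design and growth texts. The design text writes the mutant genotype as Shh with Prmt5, so an Shh allele may be part of the difference between the groups, and the sources used here give neither that allele nor what the controls carry. Whether a library held 1 embryo or several is not stated, and p-values therefore reflect only how far these libraries spread, which can include technical spread. The comparison asks which genes differ in airway tissue after the epithelium loses Prmt5, and here it asks whether the genes of cell division do.

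Mitosis runs on a burst of transcription in late S and G2 phase, in which a shared group of genes is switched on and then falls silent as the daughter cells enter G1. The RNA level of these genes in a tissue therefore tracks the share of cells in G2 and M phase, and in the embryonic lung both the branching epithelium and the mesenchyme around it divide rapidly. Many promoters of the group carry a cell cycle homology region (CHR), the element through which MuvB complexes repress them in resting cells and, with B-Myb and FoxM1, activate them in G2, often beside CCAAT boxes bound by NF-Y. In bulk tissue, fewer cells of a type and less RNA per cell cannot be told apart.

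Total reads per library, recovered from the steps between FPKM values, were 15652503 to 18682463, and the members whose length matched the annotation had 552 to 12027 reads per library. Prmt5 itself was at 23.7 and 20.1 FPKM in the mutants, against 28.7, 26.4 and 25.8 FPKM in the controls (log2 change -0.29, SE 0.12, limma adjusted p = 0.234). Both mutants lay below all 3 controls, which was the case for 24.4% of all genes tested. Of the markers of the labelled tissue, the lung factor Nkx2-1 was at 36.1 and 32.8 FPKM in the mutants, against 40.2, 43.1 and 20.4 FPKM in the controls. It was the 1 of 10 epithelial markers with a positive log2 change. The other 9 had a negative one, where 61.1% of all genes did. None of the listed epithelial, mesenchymal, endothelial, muscle, blood or neural markers was at 0 in any library. Of 8 markers of skeletal muscle, 7 were tested and 6 fell at an adjusted p under 0.05 (limma), as 1.37% of all genes did. The summed level of the 8 was 26.7 and 39.9 FPKM in the mutants, against 173, 130.1 and 164 FPKM in the controls. Of the 10 epithelial markers 1 fell at that threshold, Foxa1, but for 8 both mutants lay below all 3 controls (24.4% of all genes). The sum of the 10 was 205 and 205 FPKM in the mutants, against 577, 303 and 235 FPKM in the controls. All 5 markers of neurons and neural crest had a negative log2 change, and 2 of them fell at that threshold. Of 8 mesenchymal markers 2 rose at it (0.989% of all genes), with 4 positive and 4 negative changes. None of the endothelial, heart muscle, macrophage or erythroid markers passed it. The sum of 4 Y-linked genes was 31.5 and 27.1 FPKM in the mutants, against 23.01, 18.8 and 4.49 FPKM in the controls. Xist was at 0.0673 and 0.289 FPKM in the mutants, against 57.3, 58.1 and 115 FPKM in the controls. Both mutants were apart from all 3 controls in each. All 3 controls thus held Xist and Y-linked RNA, and both mutants held Y-linked RNA with Xist below 1 FPKM. These genes depend on sex, so sex composition differed with genotype, and the 2 cannot be told apart in these libraries.

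No mitosis gene was called different between mutants and controls. None of the 35 passed the threshold (limma on log2(FPKM + 1), Benjamini-Hochberg adjusted p under 0.05 over all 12838 genes), where 2.36% of all genes tested did (0.989% higher and 1.37% lower in the mutants), and the lowest adjusted p among the 35 was 0.160, for Cdc25c. At an unadjusted p under 0.05 there were 2 higher members, Cdc25c and Cdk1, and 0 lower ones, against 6.53% and 12.3% of all genes. Voom on the recovered reads likewise called 0 of the 35. Cdk1 and Cdc25c are among the members whose length did not match the annotation, so their reads are known only up to a whole factor. The log2 changes lay between -0.19 for Cdc25b and 0.35 for Cdc25c, with a median of 0.094, beside a median of -0.059 over all genes tested. The 95% interval of a single member, not adjusted for the number of genes, reached down to -0.49 at the lowest, for Ndc80, and up to 0.67 at the highest, for Ube2c, which is 0.711-fold and 1.59-fold on the FPKM + 1 scale. For comparison, Cdkn1a, which encodes the cyclin-dependent kinase inhibitor p21, was at 48.9 and 42.4 FPKM in the mutants, against 13.3, 9.68 and 11.4 FPKM in the controls and rose (log2 change 1.91, SE 0.15, limma adjusted p = 0.00618), a call that was lost without mutant replicate 1 or 2 (adjusted p of up to 0.0640) and with TPM.

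**Figure D1:**
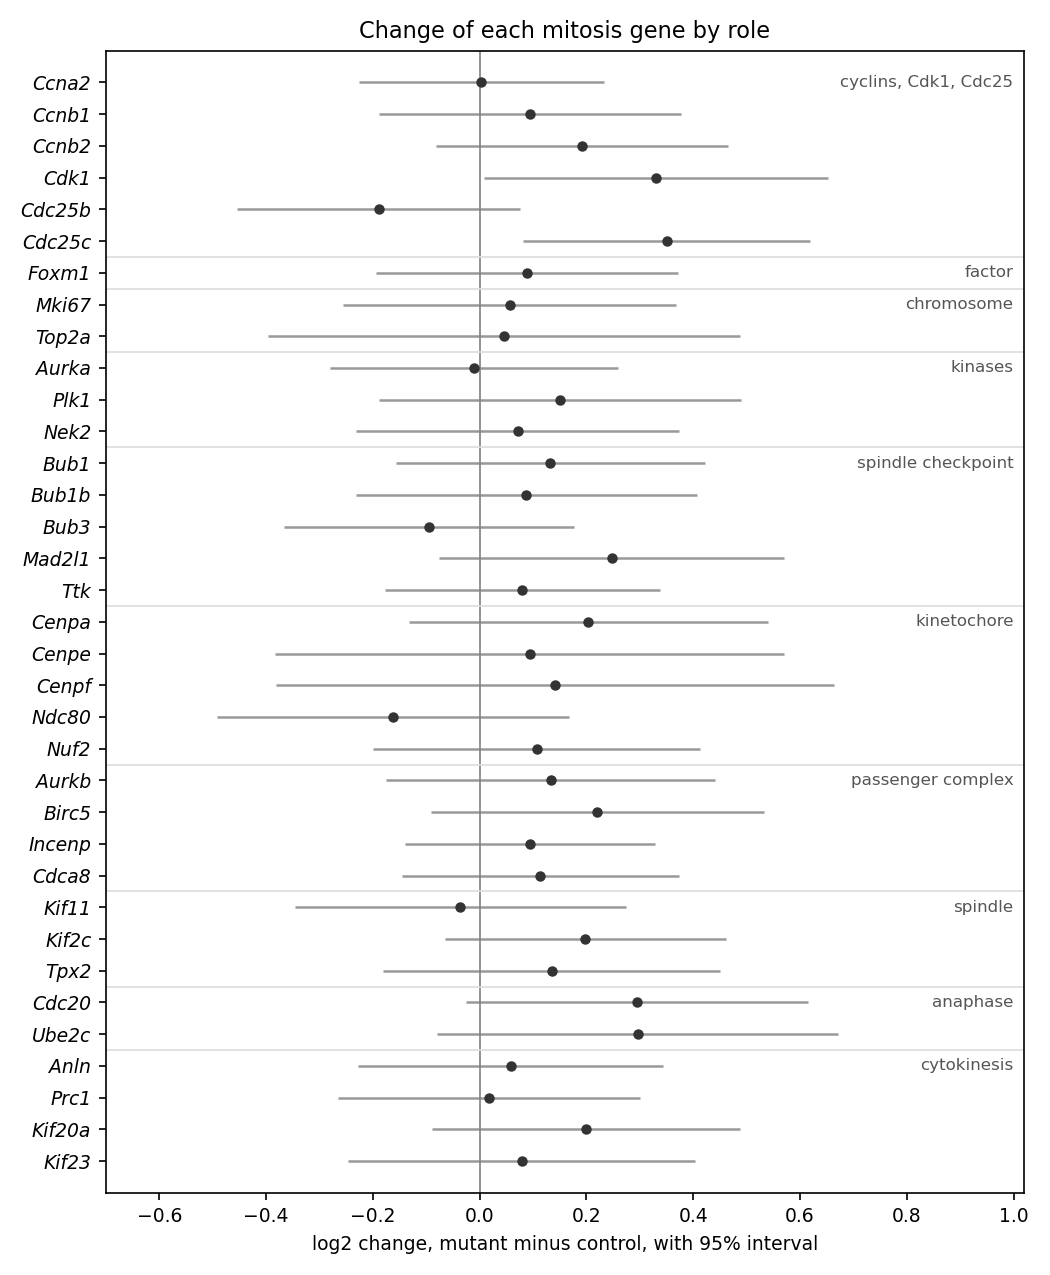
The log2 change (mutant minus control, on the log2(FPKM + 1) scale) of each of the 35 mitosis genes is plotted as a point with its 95% interval from limma, grouped by role. The points lie between -0.19 and 0.35, and the intervals of Cdk1 and Cdc25c are the 2 that leave out 0.

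Small as they were, the changes lay mostly on 1 side. A positive log2 change was found for 30 of the 35 (85.7%), where 38.9% of all genes had one. A negative change was found for 5, where 61.1% had one. The number with a positive change was 17 of 35 with the level of the Y-linked genes, which differed with genotype, as a covariate. It was 0 of 35 with TPM, which moved the median of all genes to -0.59. With TPM without Gm23935, an entry of 57 bases, it was 25 of 35. Relative to the median of all genes in the same setting, 32 of 35 members lay above it with FPKM, 31 of 35 with TPM, and 21 of 35 with the Y-gene covariate. Both mutants lay above all 3 controls for 8 members (22.9%, against 13.2% of all genes), which were Ccnb2, Cdk1, Cdc25c, Mad2l1, Birc5, Incenp, Kif2c and Kif20a. Both lay below all 3 controls for 1 member, Cdc25b (2.86%, against 24.4% of all genes). For the other 26 the groups overlapped.

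Control replicate 3 had the lowest level of the 5 libraries for 21 of the 35 members and the highest for 0, where it was lowest for 14.1% and highest for 25.9% of all genes. Control replicate 1 was highest for 15 of the 35 and lowest for 7, against 28.6% and 18.9% of all genes. As a median deviation from each gene's mean over the 5 libraries, the members stood at 0.04 and 0.079 in the mutants, against 0.056, -0.014 and -0.16 in the controls. Control replicate 1 lay between the mutants, and control replicate 3 lay below every other library. Without control replicate 3 the median log2 change of the members was 0.052, with 25 of 35 positive, and without control replicate 1 it was 0.15, with 31 positive. Control replicate 3 was also the library with the lowest Y-linked sum, the highest Xist and the highest level of heart muscle markers, whose sum was 122 and 350.5 FPKM in the mutants, against 187, 177 and 798 FPKM in the controls. The part of these in the level of the mitosis genes was not tested. With the Y-gene covariate the median log2 change of the members was -0.0047. Both mutants lay above every control in Y-linked level, so that covariate cannot separate sex from genotype.

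**Figure D2:**
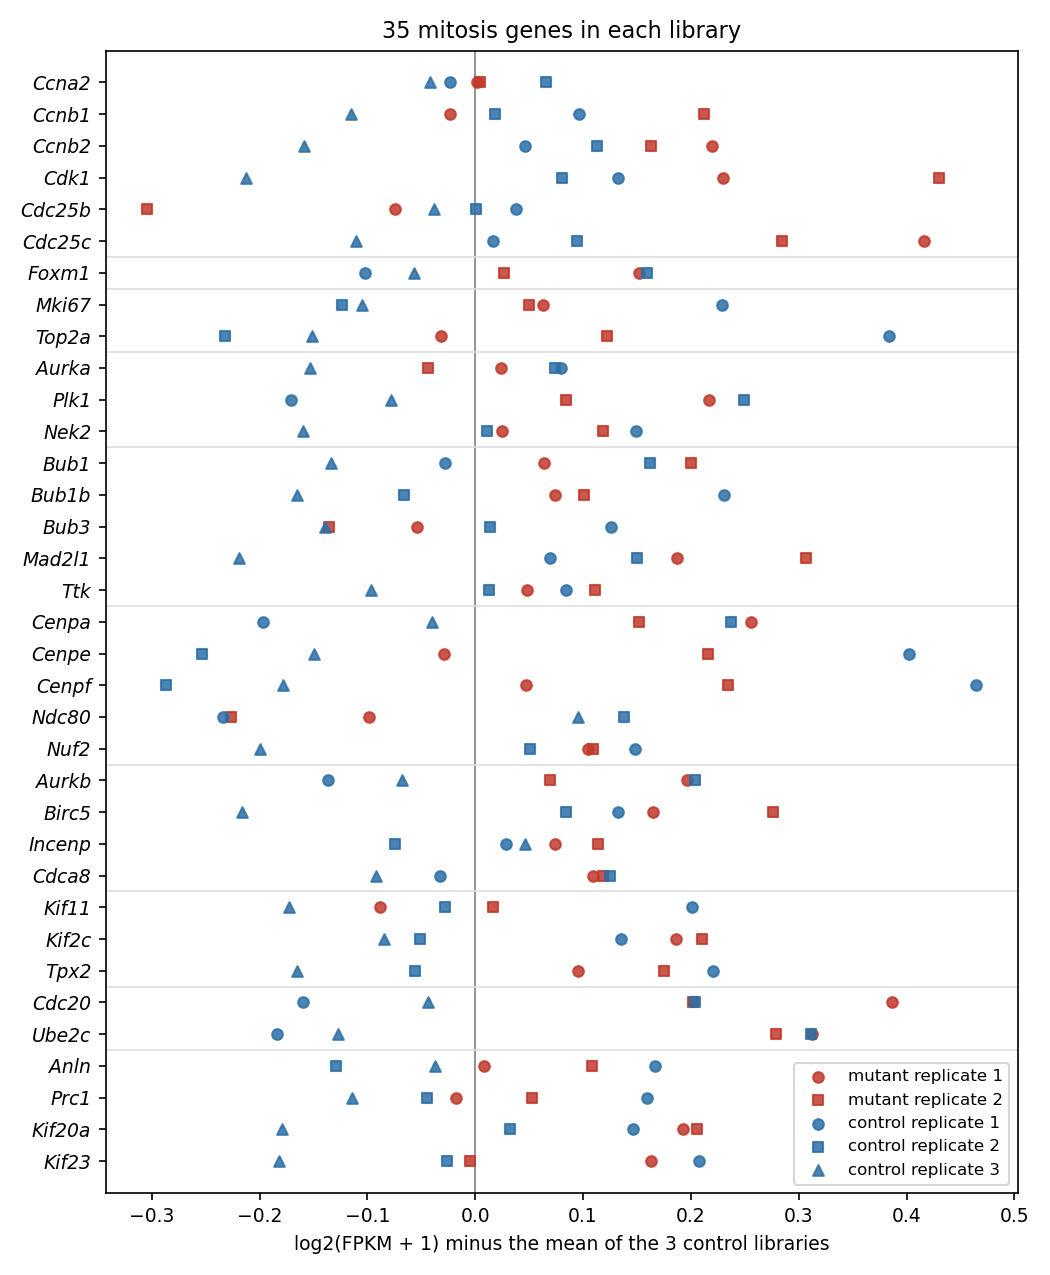
Each row is 1 of the 35 mitosis genes and each point 1 library (mutant replicates 1 and 2 in red, control replicates 1, 2 and 3 in blue), as log2(FPKM + 1) minus the mean of the 3 controls. Control replicate 3 (blue triangles) is the lowest point for 21 of the 35 genes, and control replicate 1 (blue circles) is the highest for 15.

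Of the mitotic cyclins, kinase and phosphatases, Cdk1 and Cdc25c had the largest positive changes of all members. Cdk1, the kinase that drives entry into mitosis, was at 53.3 and 61.4 FPKM in the mutants, against 49.7, 47.9 and 38.9 FPKM in the controls. Both mutants lay above the controls, and control replicate 3 was the lowest (log2 change 0.33, SE 0.14, limma adjusted p = 0.253, 95% interval 0.0074 to 0.65). Cdc25c, a phosphatase that removes inhibitory phosphates from Cdk1, was at 15.9 and 14.4 FPKM in the mutants, against 11.8, 12.5 and 10.7 FPKM in the controls (log2 change 0.35, SE 0.11, limma adjusted p = 0.160). Its relative Cdc25b, which starts Cdk1 activation at the centrosome, was the 1 member with both mutants below the controls, at 14.8 and 12.5 FPKM in the mutants, against 16.1, 15.6 and 15.2 FPKM in the controls (log2 change -0.19, SE 0.11, limma adjusted p = 0.428). The ratio of Cdc25c to Cdc25b FPKM was 1.08 and 1.16 in the mutants, against 0.737, 0.803 and 0.708 in the controls, so the groups did not overlap. This pair was chosen after its values were seen, and 2 against 3 libraries allow an exact permutation p of 0.1 at best.

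The cyclins had smaller changes. Ccna2 encodes cyclin A2, the partner of Cdk1 and Cdk2 in S and G2 phase, and was at 42.5 and 42.5 FPKM in the mutants, against 41.7, 44.4 and 41.1 FPKM in the controls, with the smallest change of all 35 (0.0029, 95% interval -0.23 to 0.23). Ccnb1, which encodes the main mitotic cyclin B1, was at 34.03 and 40.3 FPKM in the mutants, against 37.1, 35.1 and 31.9 FPKM in the controls. Mutant replicate 2 was above and mutant replicate 1 within the range of the controls (log2 change 0.094, SE 0.12, limma adjusted p = 0.745). Ccnb2, for cyclin B2, was at 58.4 and 56.2 FPKM in the mutants, against 51.7, 54.2 and 44.7 FPKM in the controls, and both mutants lay above the controls without passing (log2 change 0.19, SE 0.12, limma adjusted p = 0.438). Foxm1, the forkhead factor that activates many of these genes in G2, was at 19.6 and 17.8 FPKM in the mutants, against 16.2, 19.7 and 16.8 FPKM in the controls, and the mutants lay inside the range of the controls (log2 change 0.089, SE 0.12, limma adjusted p = 0.762).

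The proliferation markers differed more among the controls than between the groups. Mki67, which encodes the Ki-67 protein that coats mitotic chromosomes, was at 55.2 and 54.7 FPKM in the mutants, against 62.1, 48.4 and 49.05 FPKM in the controls (log2 change 0.056, SE 0.13, limma adjusted p = 0.876). Top2a, for the topoisomerase that untangles sister chromatids, was at 53.3 and 59.4 FPKM in the mutants, against 71.4, 46.3 and 48.99 FPKM in the controls (log2 change 0.045, SE 0.19, limma adjusted p = 0.932). Control replicate 1 was above every other library for both, and the mutants lay between it and the other 2 controls.

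Of the mitotic kinases, Plk1, Aurka and Nek2 had overlapping groups. Plk1, polo-like kinase 1, which acts from mitotic entry to cytokinesis, was at 47.5 and 43.2 FPKM in the mutants, against 36.1, 48.6 and 38.5 FPKM in the controls (log2 change 0.15, SE 0.14, limma adjusted p = 0.643). Aurka, for Aurora A at the spindle poles, was at 27.3 and 26.02 FPKM in the mutants, against 28.4, 28.3 and 24.05 FPKM in the controls (log2 change -0.0100, SE 0.12, limma adjusted p = 0.979). Nek2, a kinase of centrosome separation and the member with the lowest mean FPKM in both groups, was at 7.76 and 8.35 FPKM in the mutants, against 8.55, 7.67 and 6.71 FPKM in the controls (log2 change 0.072, SE 0.13, limma adjusted p = 0.831).

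The spindle checkpoint holds the cell in metaphase until every kinetochore is attached. Its 5 members had log2 changes of -0.095 for Bub3 to 0.25 for Mad2l1 and adjusted p of 0.390 or more. Mad2l1, which encodes Mad2, the core of the checkpoint signal, was at 14.6 and 15.95 FPKM in the mutants, against 13.4, 14.2 and 10.8 FPKM in the controls, with both mutants above the controls (log2 change 0.25, SE 0.14, limma adjusted p = 0.390). Bub3, an adaptor of Bub1 and BubR1, was at 22.2 and 20.9 FPKM in the mutants, against 25.2, 23.3 and 20.8 FPKM in the controls, with overlapping groups (log2 change -0.095, SE 0.12, limma adjusted p = 0.730). The kinases Bub1 and Ttk, and Bub1b for BubR1, had changes of 0.13, 0.080 and 0.087, and their groups overlapped.

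At the centromere and kinetochore, Cenpa, the histone H3 variant that marks the centromere, was at 29.4 and 27.3 FPKM in the mutants, against 21.2, 28.98 and 23.7 FPKM in the controls (log2 change 0.20, SE 0.14, limma adjusted p = 0.506). Control replicate 2 lay between the mutants, and the other controls lay below them. Ndc80 and Nuf2 form a dimer in the complex that grips microtubules, and they had changes of opposite sign. Ndc80 was at 15.9 and 14.4 FPKM in the mutants, against 14.3, 18.9 and 18.3 FPKM in the controls (log2 change -0.16, SE 0.14, limma adjusted p = 0.602). Nuf2 was at 12.8 and 12.8 FPKM in the mutants, against 13.2, 12.3 and 10.2 FPKM in the controls (log2 change 0.11, SE 0.13, limma adjusted p = 0.729). The ratio of Nuf2 to Ndc80 FPKM was 0.805 and 0.888 in the mutants, against 0.920, 0.650 and 0.555 in the controls, where control replicate 1 lay above both mutants and the other controls below them. Cenpe, a kinetochore motor, and Cenpf, a large kinetochore and nuclear matrix protein, had the widest intervals of the list, -0.38 to 0.57 and -0.38 to 0.66. Cenpf was at 8.91 and 10.3 FPKM in the mutants, against 12.2, 6.86 and 7.48 FPKM in the controls, with control replicate 1 above all other libraries.

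The chromosomal passenger complex, in which Aurora B corrects faulty attachments, had log2 changes of 0.094 for Incenp to 0.22 for Birc5. Aurkb, its kinase, was at 29.99 and 27.4 FPKM in the mutants, against 23.6, 30.1 and 24.8 FPKM in the controls (log2 change 0.13, SE 0.13, limma adjusted p = 0.652). Birc5, for survivin, was at 30.4 and 32.9 FPKM in the mutants, against 29.7, 28.7 and 23.1 FPKM in the controls, both mutants above the controls (log2 change 0.22, SE 0.13, limma adjusted p = 0.434). Incenp, the scaffold, was at 34.7 and 35.7 FPKM in the mutants, against 33.6, 31.2 and 34.1 FPKM in the controls, again with both mutants above the controls by a small margin (log2 change 0.094, SE 0.10, limma adjusted p = 0.677). Cdca8, for borealin, had a log2 change of 0.11 with overlapping groups. The summed FPKM of the 4 genes was 112 and 113 FPKM in the mutants, against 102, 107 and 96.7 FPKM in the controls, so control replicate 2 reached close to the mutants and control replicate 3 was lowest.

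Among the spindle genes, Kif11, the kinesin that pushes the poles apart, was at 33.2 and 35.8 FPKM in the mutants, against 40.8, 34.7 and 31.3 FPKM in the controls (log2 change -0.036, SE 0.13, limma adjusted p = 0.922). Kif2c, a kinesin that takes microtubules apart at centromeres, was at 18.5 and 18.8 FPKM in the mutants, against 17.8, 15.5 and 15.2 FPKM in the controls, with both mutants above the controls (log2 change 0.20, SE 0.11, limma adjusted p = 0.398). Tpx2, the activator of Aurora A, had a log2 change of 0.14 and overlapping groups.

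Cdc20 and Ube2c act together in the onset of anaphase, as the activator of the anaphase-promoting complex and the enzyme that supplies it with ubiquitin. Their log2 changes were nearly the same. Cdc20 was at 89.8 and 78.9 FPKM in the mutants, against 61.2, 78.99 and 66.4 FPKM in the controls (log2 change 0.29, SE 0.14, limma adjusted p = 0.303, 95% interval -0.026 to 0.61). Ube2c was at 66.5 and 64.97 FPKM in the mutants, against 46.9, 66.4 and 48.8 FPKM in the controls (log2 change 0.30, SE 0.16, limma adjusted p = 0.376, 95% interval -0.079 to 0.67). In both cases control replicate 2 lay with the mutants and the other controls lay below them, so the groups overlapped. Exons of Ube2c overlap those of Tnnc2, a troponin gene of skeletal muscle on the opposite strand, and reads of the 2 genes cannot be told apart without strand. Exons of 8 other members also overlap a protein-coding gene, on the opposite strand for Ccna2, Cdc20, Cdc25b, Cdc25c, Cdca8, Kif20a and Prc1 and on the same strand for Foxm1, where strand would not separate the reads either.

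Of the cytokinesis genes, Kif20a, a kinesin of the central spindle, was at 32.6 and 32.9 FPKM in the mutants, against 31.5, 29.02 and 24.9 FPKM in the controls, with both mutants above the controls (log2 change 0.20, SE 0.12, limma adjusted p = 0.445). Anln, for the contractile ring scaffold anillin, Prc1, which bundles the central spindle, and Kif23, the kinesin of centralspindlin, had log2 changes of 0.058, 0.018 and 0.079 with overlapping groups and adjusted p of 0.825 or more.

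Promoter sequences show what the members share beyond their roles. RefSeq promoters, 250 bases before to 50 after the gene start, were matched by symbol for 28 of the 35 members. A CHR, as the letters TTTGAA or, in a second form, the letters TTCGAA on either strand, was found in 22 of 28 (78.6%), against 13.1% of the promoters of 9478 genes that were tested and 19.2% of all 32851 promoters. In 20 of the 22 it lay from 50 bases before to 50 after the start. CCAAT on either strand was found in 22 of 28 (78.6%), against 38.4% and 37.4%, and at 2 or more places in 15 (53.6%), against 14.7% and 11.7%. CHR and CCAAT were found together in 19 of 28 (67.9%), against 5.60% and 7.52%. An E2F motif (TTTGGCGC, TTTCGCGC, TTTCCCGC or TTTGCCGC on either strand) was found in 1 of 28, Cdk1, against 4.23% and 2.26%. Of 81 matches in the members 2 overlapped another match. The members were chosen as genes of G2 and M phase, many of them known to carry these elements, so these shares describe the list and are no test of it.

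The promoters shown are those of the 6 members with the smallest unadjusted p among those with both motifs, because they carry the elements the group is known for: Cdk1, Cdc20, Ube2c, Ccnb2 and Cenpa, which had positive log2 changes, and Cdc25b, which had a negative one. Each runs 5′ to 3′ on the strand of the gene, from 150 bases before to 30 after the RefSeq start (GRCm38.p6), and capitals mark each CHR and each CCAAT box, where TTCAAA is a CHR and where ATTGG is a CCAAT box read on the opposite strand.
Cdk1 (chr10:69352883-69353062, minus strand): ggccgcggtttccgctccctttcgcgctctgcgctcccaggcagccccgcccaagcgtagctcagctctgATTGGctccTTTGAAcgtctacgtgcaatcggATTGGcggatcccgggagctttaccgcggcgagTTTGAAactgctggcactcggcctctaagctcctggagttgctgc
Cdc20 (chr4:118437314-118437493, minus strand): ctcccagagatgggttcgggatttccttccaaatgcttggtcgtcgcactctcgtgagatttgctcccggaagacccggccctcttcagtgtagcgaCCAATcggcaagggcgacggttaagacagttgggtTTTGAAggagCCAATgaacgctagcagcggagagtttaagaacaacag
Ube2c (chr2:164769779-164769958, plus strand): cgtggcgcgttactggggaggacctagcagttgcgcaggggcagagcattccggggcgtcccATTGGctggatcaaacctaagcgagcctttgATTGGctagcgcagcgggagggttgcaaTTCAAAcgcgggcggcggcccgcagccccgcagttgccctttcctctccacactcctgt
Cdc25b (chr2:131186798-131186977, plus strand): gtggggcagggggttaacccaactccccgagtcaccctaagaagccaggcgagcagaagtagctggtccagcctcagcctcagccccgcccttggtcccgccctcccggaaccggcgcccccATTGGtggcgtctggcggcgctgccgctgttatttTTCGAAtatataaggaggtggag
Ccnb2 (chr9:70421525-70421704, minus strand): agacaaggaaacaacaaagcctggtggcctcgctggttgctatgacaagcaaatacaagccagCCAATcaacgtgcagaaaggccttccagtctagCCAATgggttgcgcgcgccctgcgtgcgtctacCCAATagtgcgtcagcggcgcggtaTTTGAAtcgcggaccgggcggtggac
Cenpa (chr5:30666736-30666915, plus strand): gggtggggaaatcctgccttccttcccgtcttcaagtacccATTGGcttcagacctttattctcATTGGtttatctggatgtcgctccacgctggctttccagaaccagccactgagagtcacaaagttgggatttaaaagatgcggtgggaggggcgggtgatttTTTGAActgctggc
Cdc25b, the 1 member with both mutants below all controls, carried a CHR with the letters TTCGAA just after the start and a single CCAAT box. Cdk1, Cdc20 and Ube2c carried the TTTGAA form close before the start, read on the opposite strand in Ube2c, and Ccnb2 and Cenpa carried it just after the start. A match of letters is a description and not a measured binding site.

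The other genes of mitosis were read from lists of 109 genes, which held no member and were all tested: 2 rose and 1 fell (2.75% past the threshold, where 2.36% of all genes were), and their median log2 change was 0.038. Psrc1 (chromosome 3, 108383839 to 108388231, GRCm38), which encodes a spindle protein and is also a target of p53, was at 34.1 and 27.9 FPKM in the mutants, against 12.2, 14.3 and 12.1 FPKM in the controls (log2 change 1.201, SE 0.13, limma adjusted p = 0.00862). Both mutants lay far above all 3 controls, a ratio of 2.41 between the means. Gtse1 (chromosome 15, 85859745 to 85876573), which encodes a microtubule-binding protein of G2 and M phase that also binds p53, was at 28.8 and 26.5 FPKM in the mutants, against 12.1, 15.4 and 14.02 FPKM in the controls (log2 change 0.95, SE 0.13, limma adjusted p = 0.0163), a ratio of 1.99. Cenpk (chromosome 13, 104228611 to 104252392), a subunit of the inner kinetochore, was at 5.58 and 6.56 FPKM in the mutants, against 12.3, 10.99 and 10.6 FPKM in the controls and fell (log2 change -0.80, SE 0.12, limma adjusted p = 0.0264). Its exons overlap those of Ppwd1 on the opposite strand, and reads of the 2 genes cannot be told apart without strand. The rise of Psrc1 and Gtse1 and the fall of Cenpk kept their direction in every setting tried. All 3 lost the threshold without mutant replicate 1 or 2 and with TPM. Among other settings, Cenpk lost it without control replicate 2, and Gtse1 and Cenpk lost it with no filter and with the Y-gene covariate. Cenpk lost it with quantile normalization as well. The adjusted p over all alternatives ran up to 0.662 for Psrc1 and Cenpk and 0.675 for Gtse1, each with TPM.

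Within these lists, the subunits and partners of the anaphase-promoting complex had 0 of 17 past the threshold, with Anapc13, Anapc10 and Cdc27 nearest to it at log2 changes of 0.35, 0.29 and -0.24 (adjusted p of 0.178 or more). Condensin and cohesin genes had 0 of 21 past it and a median of -0.046. Smc4, a condensin ATPase, was at 31.00 and 35.7 FPKM in the mutants, against 49.3, 35.7 and 41.1 FPKM in the controls (log2 change -0.32, SE 0.15, limma adjusted p = 0.314), and Ncapg2 and Cdca5 were at -0.23 and 0.21. Of the 28 other kinetochore genes, Zwint, which helps recruit the checkpoint to the kinetochore, was nearest after Cenpk, at a log2 change of 0.25 (adjusted p = 0.228). Of the 26 other spindle and cytokinesis genes 23 had a positive change, where 38.9% of all genes had one. Their median deviations from each gene's mean were 0.083 and 0.105 in the mutants, against 0.068, -0.099 and -0.167 in the controls. Control replicate 1 thus stood close to the mutants, and control replicate 3 was lowest. The count was not repeated with TPM or the Y-gene covariate. After Psrc1 the mitotic kinesins Kif18b and Kifc1 were nearest, at 0.37 and 0.40 (limma adjusted p = 0.106 and 0.121). Of the 17 other regulators of G2 and M phase, Ccnf, for cyclin F, and Nek7 were nearest after Gtse1, at 0.35 and -0.35 (adjusted p = 0.167 and 0.201).

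**Figure D3:**
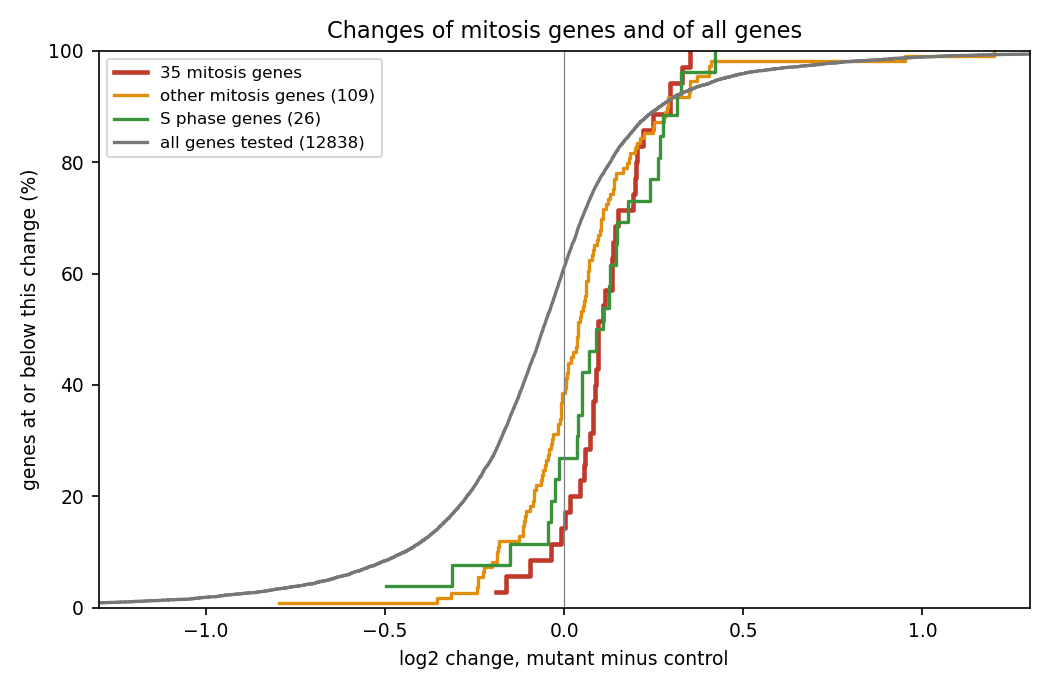
For each list the curve gives the percentage of genes (y axis) at or below a log2 change (x axis, mutant minus control on the log2(FPKM + 1) scale): the 35 mitosis genes, 109 other mitosis genes, 26 S phase genes and all 12838 genes tested. The mitosis genes keep between -0.19 and 0.35 with a median of 0.094, against -0.059 for all genes. With TPM the median of the members is -0.46, with TPM without Gm23935 it is 0.030, and with the Y-gene covariate it is -0.0047.

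S phase genes, which act just before mitosis, also had small changes. Of 26 tested 0 passed, with a median log2 change of 0.098 and 19 positive, where 38.9% of all genes were positive. E2f2, Gins4 and Gins1 were nearest to the threshold, at -0.50, 0.32 and 0.42 (adjusted p = 0.147, 0.153 and 0.193). The median deviations of the S phase list were 0.028 and 0.096 in the mutants, against -0.013, 0.019 and -0.16 in the controls, so control replicate 3 was lowest here too. Of the 12 genes of the DREAM and MuvB complexes, whose MuvB core binds the CHR, 0 passed, with a median of -0.087 and 9 negative. Over all genes tested the median was -0.059 and 61.1% were negative. E2f5, Rbl2, for the pocket protein p130, and Rbl1, for p107, were at -0.30, -0.34 and -0.22 (adjusted p = 0.239, 0.296 and 0.317). Of 5 CDK inhibitor genes tested, Cdkn1a was the 1 that passed. Cdkn1c, for p57, was at 258 and 207 FPKM in the mutants, against 347, 334 and 369 FPKM in the controls (log2 change -0.59, SE 0.13, limma adjusted p = 0.0679). Cdkn1b, for p27, was at -0.29 (limma adjusted p = 0.226). For both genes the mutants lay below the controls, as for 24.4% of all genes.

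**Figure D4:**
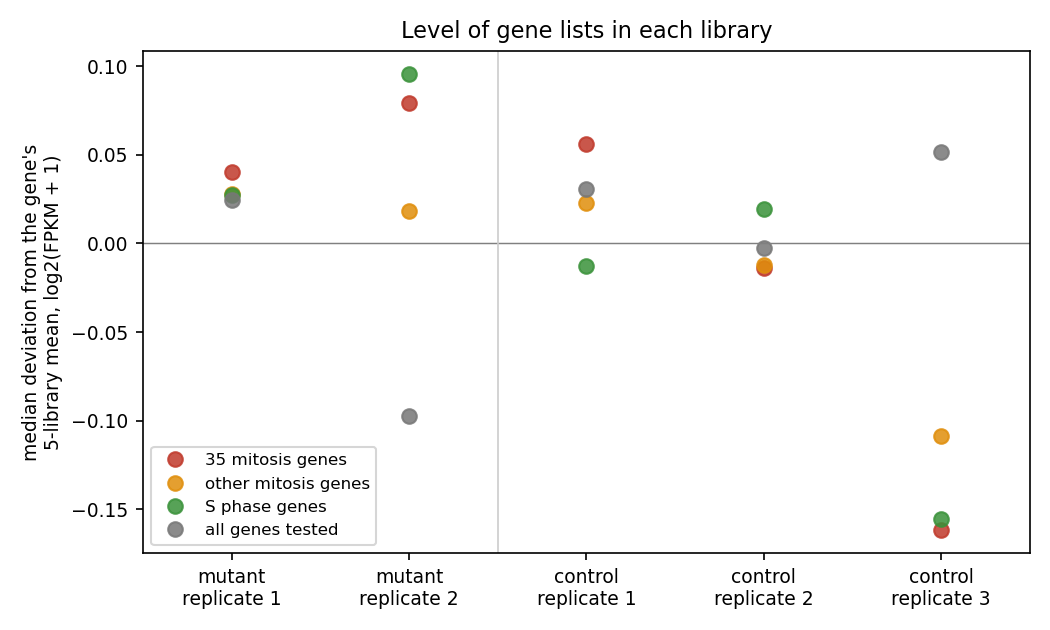
For each library (x axis, mutants left of controls) the points give the median over a list of log2(FPKM + 1) minus the gene's mean over the 5 libraries, for the 35 mitosis genes, 109 other mitosis genes, 26 S phase genes and all genes tested. Mitosis and S phase genes both stand at -0.16 in control replicate 3, where all genes stand at 0.052.

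The members also varied among the controls along their coding length. Between control replicates 1 and 2 the difference in log2(FPKM + 1) ran from -0.50 for Ube2c, with a coding sequence of 537 bases, to 0.75 for Cenpf, with 8991 bases. Cenpe (7413 bases) and Top2a (4584 bases) stood at 0.66 and 0.62, and Cenpa (402 bases) and Plk1 (1809 bases) at -0.43 and -0.42. Across the 35 genes Spearman's rho with coding length was 0.66, and across the 11941 tested genes with a coding length it was 0.16. Between control replicates 2 and 3 the values were -0.69 and -0.29, and between control replicates 1 and 3 they were 0.40 and -0.063. Between mutant replicates 1 and 2 they were -0.24 and 0.20, and for the change between mutants and controls -0.37 and -0.10. The members and all genes thus had opposite signs in 2 of these 5 differences. These are descriptions across genes that share the same libraries, and genes are not independent replicates. For Cenpf, Cenpe and Top2a the difference between those 2 controls was thus larger than the difference between the groups, 0.14, 0.093 and 0.045.

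**Figure D5:**
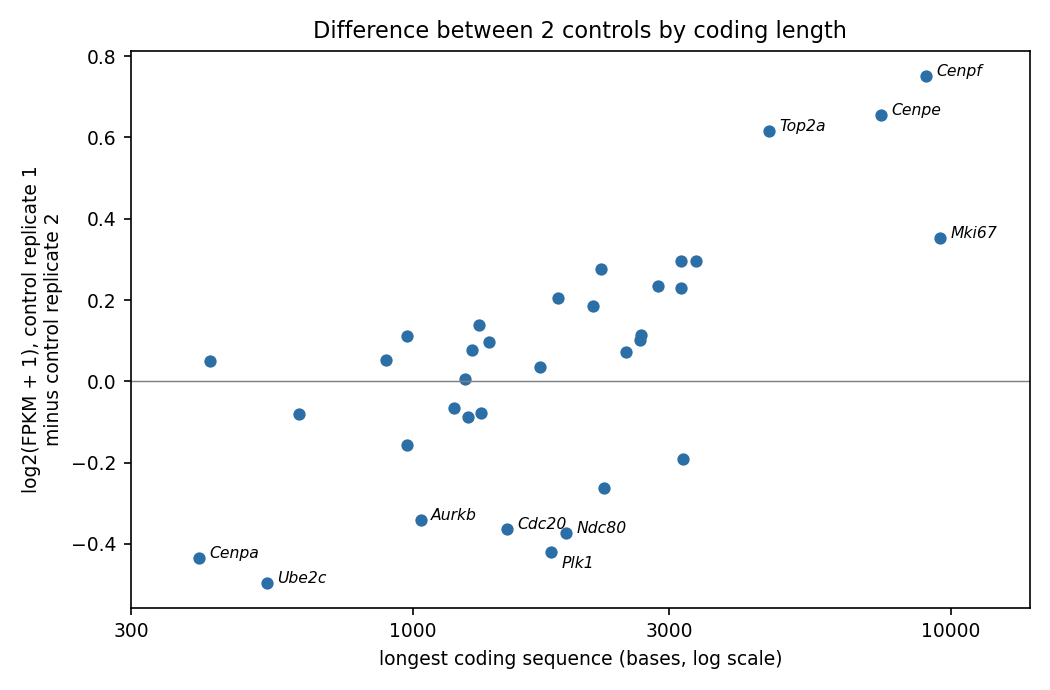
Each point is 1 of the 35 mitosis genes, with the length of its longest coding sequence (GENCODE M21, log axis) and the difference in log2(FPKM + 1) between control replicate 1 and control replicate 2, and genes beyond 0.3 either way are named. Long genes such as Cenpf lie high, at 0.75, and short ones such as Ube2c low, at -0.50.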

How the data were processed

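RNA was sequenced from 2 mutant and 3 control libraries of embryonic airway tissue. Groups come from the genotype labels and replicate numbers from the titles. Kits were RNeasy for RNA and SMARTER mRNA-Seq for libraries, per the labels' protocols. The labels' treatment protocol describes cultured cells and was not used. The authors deposited 1 table of FPKM values, the unit being taken from the table's name. The submitters' processing notes name GRCm38 (mm10). For the aligner, counter, annotation, filters and strand, the answer is not given in the sources used here.

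Values were tested with limma 3.58.1 in R 4.3.3 (lmFit, eBayes with a trend, two-sided, no covariate) on log2(FPKM + 1) of the deposited FPKM, for genes that reached 1 FPKM in 2 or more libraries, with p-values adjusted by Benjamini-Hochberg over all 12838 genes and a threshold of 0.05. The pseudocount of 1 understates changes of low genes. Since 2 against 3 libraries give 10 splits, an exact permutation p cannot go below 0.1. Reads were recovered from the FPKM steps: 100% of entries came out as whole reads (relative tolerance 1e-09). The gene length matched GENCODE M21 for 25 of the 35 members, and for the others reads are known only up to a whole factor and are not given. Exons of 9 members overlap another protein-coding gene. In the lists, Sgo1, Sgo2a, Knl1 and Haspin stand in the table as Sgol1, Sgol2a, Casc5 and Gsg2.

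The members and lists were chosen with earlier results of these data known. The text names all members, the 3 genes of each list of mitosis, S phase, DREAM and CDK inhibitor genes with the smallest p, Prmt5, and markers where they bear on a result. A gene that the rule would name among the kinetochore genes is not reported here. Ratios of member pairs were picked with their values known. The fit was tested on simulated data with changes larger than that of any member. That test therefore does not show how changes as small as theirs are recovered. Alternatives were another pseudocount (0.1), no filter, a filter of 5 FPKM, median ratio scaling, quantile normalization, TPM with and without Gm23935, voom, no trend, the Y-gene level as a covariate, a replicate block, and leaving out each library.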

Additional observations from a re-analysis of the deposited data

How the results depend on the processing

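None of the 35 members passed the threshold in any of the 16 alternatives, in which the lowest adjusted p was 0.0997 (Cdc25c, median ratio scaling). Leaving out TPM, 19 members kept the sign of their change in every alternative and the other 16 did not. Not every alternative could change a sign: no filter, the filter of 5 FPKM and no trend leave each log2 change as it was. The replicate block gives the same log2 changes as leaving out control replicate 3 (median of the members 0.052 in both). The number of all genes past the threshold was 303, but 69 with no filter, 67 with TPM, 603 with voom and 131 with the Y-gene covariate, and 4 to 284 with 1 library left out: 4 without mutant replicate 1, 11 without mutant replicate 2 and 217 to 284 without a control. The lone mutant is then assumed to vary like the controls. The median log2 change of the members was -0.46 with TPM, where the median of all genes moved to -0.59. Gm23935, with a length of 57 bases, was at 134002 and 588384 FPKM in the mutants, against 25156, 321999 and 85274 FPKM in the controls. The groups overlapped (log2 change 1.67, SE 1.08, limma adjusted p = 0.471). Without Gm23935 the median of the members with TPM was 0.030. Deviations of same-numbered mutants and controls from their group means had correlations of -0.067 and 0.02. The deviations of 2 mutants mirror each other, so this check cannot show whether same-numbered libraries share a litter or batch. The numbers were used only as names. The block called 259 genes, and under it Gtse1 and Cenpk had adjusted p of 0.05002 and 0.0606, above the threshold. With TPM 30 members changed sign, and with TPM without Gm23935 5 did. Beyond leaving out Gm23935, the cause of the changes of sign below was not tested.

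With TPM the log2 change was -0.57 for Ccna2, -0.47 for Ccnb1, -0.38 for Ccnb2, -0.24 for Cdk1, -0.19 for Cdc25c, -0.47 for Foxm1, -0.51 for Mki67, -0.53 for Top2a, -0.42 for Plk1, -0.46 for Nek2, -0.43 for Bub1, -0.48 for Bub1b, -0.30 for Mad2l1, -0.46 for Ttk, -0.36 for Cenpa, -0.46 for Cenpe, -0.40 for Cenpf, -0.44 for Nuf2, -0.43 for Aurkb, -0.34 for Birc5, -0.47 for Incenp, -0.44 for Cdca8, -0.36 for Kif2c, -0.43 for Tpx2, -0.28 for Cdc20, -0.27 for Ube2c, -0.50 for Anln, -0.53 for Prc1, -0.36 for Kif20a and -0.48 for Kif23. With TPM without Gm23935 the log2 change was -0.068 for Ccna2, -0.014 for Mki67, -0.025 for Top2a, -0.010 for Anln and -0.051 for Prc1. With the Y-gene covariate the log2 change was -0.028 for Ccna2, -0.0047 for Ccnb1, -0.070 for Mki67, -0.14 for Top2a, -0.080 for Nek2, -0.087 for Bub1b, -0.011 for Ttk, -0.084 for Cenpe, -0.074 for Cenpf, -0.082 for Nuf2, -0.034 for Tpx2, -0.10 for Prc1 and -0.12 for Kif23. With median ratio scaling the log2 change was 0.072 for Aurka and 0.047 for Kif11. With quantile normalization the log2 change was 0.020 for Aurka. With the replicate block, which left 1 degree of freedom between libraries, the log2 change was -0.018 for Ccna2, -0.030 for Top2a, -0.0082 for Nek2, -0.040 for Prc1 and -0.012 for Kif23. With 1 library left out, the log2 change of members that changed sign ran from -0.12 to 0.064 for Kif11, -0.012 to 0.18 for Kif23, -0.024 to 0.21 for Ccnb1, -0.070 to 0.24 for Top2a, -0.087 to 0.030 for Aurka, -0.033 to 0.29 for Cenpe, -0.040 to 0.097 for Prc1, -0.018 to 0.036 for Ccna2, -0.0059 to 0.17 for Mki67, -0.0024 to 0.37 for Cenpf, -0.0062 to 0.14 for Anln and -0.0082 to 0.15 for Nek2.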
